A study of Mus musculus with 13 samples.

Results

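Cardiac muscle cells and cardiac fibroblasts of grown mice were compared by RNA sequencing, using 4 of the 13 libraries of a series on the postnatal mouse heart. Cardiomyocytes of postnatal day 30 (PN30) and PN67 were set against cardiac fibroblasts of PN28 and PN60, as the sample labels name them. No neonatal library entered this contrast. All 4 libraries came from wild type FvB mice with the atria removed and were made with the Illumina TruSeq RNA protocol. The cardiomyocytes had been isolated by Langendorff perfusion and extracted with the RNeasy fibrous tissue mini kit, whereas the fibroblasts had been digested enzymatically, preplated and extracted with the micro RNeasy kit. Isolation and kit therefore followed the cell type, and their parts in any difference cannot be told apart from it. The other 9 libraries were neonatal cardiomyocytes (2, isolated by preplating with the Cellutron kit), neonatal cardiac fibroblasts (2) and ventricles of 5 ages, which were rRNA depleted and made with another library kit. In a pair of values from the later cells or the ventricles, the first is the younger age. Neonatal pairs follow the order of the libraries in the series, not age.

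Cardiomyocytes are the contractile cells of the heart. Their sarcomeres slide thin filaments of actin, troponin and tropomyosin along thick filaments of myosin, calcium released from the sarcoplasmic reticulum starts each beat, and densely packed mitochondria supply the ATP, in the adult mostly from fatty acids. Cardiac fibroblasts hold and renew the extracellular matrix of collagens, proteoglycans and their modifying enzymes. When injured, or when detached from their tissue, they are known to secrete cytokines and chemokines.

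Each cell type had 2 libraries of different ages and no replicate within an age, so the difference between ages was part of the error. The labels do not say whether the 4 libraries came from separate animals or from pools, and p-values then measure only the spread between these libraries. Levels are FPKM (fragments per length of transcript and size of the library), which are per length and may be compared between genes. A gene's FPKM was the sum over its transcripts of at least 200 nucleotides that Cufflinks had marked as reliably quantified. Differences are cardiomyocytes minus fibroblasts on the log2(scaled FPKM + 1) scale with their standard error, and a gene was called at a limma adjusted p (Benjamini-Hochberg) below 0.05. An exact permutation test of 2 against 2 libraries cannot go below p = 0.333, so all calls rest on the spread that limma shares among genes. Numbers of reads were not given, and the median coverage per unit of FPKM was 23.3 and 21.8 in cardiomyocytes and 32.1 and 30.4 in fibroblasts, which puts the deeper sampling on the fibroblast side. Left out were 63 genes with a transcript that Cufflinks could not quantify, among them Myh6, Actc1, Mb, Atp2a2, Dcn, Gsn, Ccl2 and Cxcl1. A further 1490 of the 11857 genes tested had a sizeable share of their FPKM in transcripts outside the sum. These were counted but are not named with values, apart from Dmd and Utrn, of which at least 1 had such a sum.

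The libraries of each cell type resembled each other and differed widely from those of the other. Spearman's rho over the 11857 genes was 0.983 between the cardiomyocyte libraries and 0.961 between the fibroblast libraries, and 0.441 to 0.465 across cell types. Between the ages, 186 genes (1.57%) differed 2-fold or more in cardiomyocytes and 538 (4.54%) in fibroblasts, whereas 53.9 to 54.9% did so across cell types. Of the 11857 genes, 8530 (71.9%) were called, of which 4384 (37%) were higher and 4146 (35%) lower in cardiomyocytes, and 8802 had an unadjusted p below 0.05. The count of lower genes was 2633 without the PN67 and 2724 without the PN30 cardiomyocytes. Differences of at least 4-fold were called for 1707 higher genes (14.4%) and 1185 lower genes (9.99%), and of at least 32-fold for 223 (1.88%) and 86 (0.725%). The median difference over all genes was 0.01 after scaling by median ratios, a step that centres it, and -0.001 with the FPKM as deposited. Neither median tests the scale between the cell types.

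The labels were checked against markers. The 14 cardiomyocyte markers with a value, of 17 listed, summed to 47480 and 45760 FPKM in cardiomyocytes and to 26.1 and 35.4 FPKM in fibroblasts. All 14 were called higher, and 2 of them in the PN28 and 3 in the PN60 fibroblasts lay below 0.1 FPKM. The 13 fibroblast markers with a value, of 15 listed, summed to 546 and 399 FPKM in cardiomyocytes and to 3957 and 4525 FPKM in fibroblasts, and all 13 were called lower with a median log2 difference of -2.94. None of the 13 was near 0 in cardiomyocytes, where their level was 4.15 to 25.7% of that in fibroblasts (median 12.7%). Tcf21, a transcription factor of the fibroblast lineage, had 10.6 and 12.6 FPKM in cardiomyocytes and 248 and 311 FPKM in fibroblasts (-4.46 ± 0.18, adjusted p = 5.34e-05, limma). Dpt, a matrix protein of fibroblasts, had 65.4 and 62.6 FPKM against 746 and 963 FPKM in fibroblasts. The cardiomyocyte libraries thus held RNA of fibroblast markers at low but clear levels, while the fibroblast libraries held very little RNA of cardiomyocyte markers. In such bulk libraries fewer cells of a type and less RNA per cell cannot be told apart.

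Other cell types left traces in both preparations. The counts of their markers stand beside 37% called higher and 35% called lower over all genes. Macrophage and leukocyte markers summed to 451 and 488 FPKM in cardiomyocytes and 1778 and 1661 FPKM in fibroblasts. Of the 18 tested of 20 listed, 14 were called lower in cardiomyocytes and none higher, and 9 were called lower without the PN30 cardiomyocytes. Cd68, a lysosomal protein of macrophages, had 8.23 and 7.66 FPKM in cardiomyocytes and 105 and 68.4 FPKM in fibroblasts, and Lyz2, the lysozyme of myeloid cells, had 126 and 138 FPKM against 387 and 355 FPKM. Endothelial markers leaned the other way, summing to 1589 and 2481 FPKM in cardiomyocytes against 872 and 956 FPKM in fibroblasts. Of 18 tested, 11 were called higher and 1 lower, but only 7 were called higher without the PN28 fibroblasts and 6 without the PN67 cardiomyocytes. The exception was Cldn5, a tight junction protein, with 21.2 and 23.1 FPKM in cardiomyocytes and 105 and 96.0 FPKM in fibroblasts. Red cell transcripts were higher in cardiomyocytes as well, and the beta globin gene Hbb-bs had 815 and 594 FPKM against 70.7 and 111 FPKM in fibroblasts, with the caution that globin genes share near-identical copies. Of 7 erythroid markers 5 were tested and called higher. Of 11 smooth muscle and pericyte markers tested, 6 were called higher and 1 lower, led by Des, which cardiomyocytes also make. Schwann cell and adipocyte markers reached the filter for 3 of 10, none of them called, and 5 of 12 mesothelial markers were tested, with 2 higher and 2 lower. Without the filter on low values 8 mesothelial markers were called higher and 1 lower, and all 7 markers below the filter had a higher mean in cardiomyocytes, such as the keratin Krt19 with 1.55 and 1.53 FPKM against 0.0652 and 0.240 FPKM in fibroblasts. How much these other cells contribute to the differences of single genes was not tested.

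The genes with the widest gaps were structural and energy genes of muscle on the cardiomyocyte side and mostly secreted inflammatory proteins on the fibroblast side. Myl3, the ventricular essential light chain of myosin, had 8650 and 7350 FPKM in cardiomyocytes and 3.47 and 3.99 FPKM in fibroblasts, a difference of 10.73 ± 0.15 (adjusted p = 2e-05, limma). Ckmt2, the mitochondrial creatine kinase of muscle, had 2359 and 1977 FPKM against 0.284 and 0.403 FPKM in fibroblasts (10.66 ± 0.16, adjusted p = 2e-05, limma). Both cardiomyocyte libraries thus lay far above both fibroblast libraries for either gene. Myl2, the regulatory light chain, was the most abundant of the 10 widest higher genes at 13440 and 14000 FPKM in cardiomyocytes, against 8.70 and 13.1 FPKM in fibroblasts (10.21 ± 0.20). The thin filament subunits Tnnt2 (7651 and 7386 FPKM against 5.12 and 6.52 FPKM) and Tnni3 (5330 and 5038 FPKM against 3.24 and 4.85 FPKM) followed. The other 5 were Pln, which inhibits the calcium pump of the sarcoplasmic reticulum, Cox6a2, the muscle subunit of cytochrome c oxidase, the cytosolic creatine kinase Ckm, the thick filament protein Mybpc3 and the Z-disc protein Csrp3, with differences of 9.66 to 9.93.

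On the other side, Il6, the cytokine interleukin 6, had 0.225 and 0.760 FPKM in cardiomyocytes and 2496 and 2662 FPKM in fibroblasts, a difference of -10.76 ± 0.22 (adjusted p = 2.16e-05, limma). Ptx3, a secreted pentraxin that binds microbes and matrix, had 0.583 and 0.524 FPKM against 1337 and 864 FPKM in fibroblasts (-9.42 ± 0.26, adjusted p = 3.01e-05, limma). Tnfaip6, a hyaluronan-binding protein induced by TNF, had 0.643 and 0.728 FPKM against 535 and 624 FPKM in fibroblasts (-8.41 ± 0.16, adjusted p = 2e-05, limma). For these 3 genes both cardiomyocyte libraries stayed below 1 FPKM, and the fibroblast libraries spanned 535 to 2662 FPKM. Cxcl2, a chemokine that attracts neutrophils, had 1.06 and 3.84 FPKM in cardiomyocytes and 4928 and 4064 FPKM in fibroblasts, the highest level among the 10 widest lower genes. The remaining 6 were the chemokines Cxcl3 and Ccl7, the cytokines Csf2 and Lif, the prostaglandin synthase Ptgs2 and the heme oxygenase Hmox1, with differences of -9.95 to -7.81. Some of them were uneven within the fibroblasts: Cxcl3 had 1689 FPKM at PN28 and 607 FPKM at PN60, Csf2 had 638 and 183 FPKM, and Hmox1 had 3467 and 1112 FPKM, in each case higher at PN28. Csf2 was listed at 0 in the PN67 cardiomyocytes and had 0.013 FPKM in the PN30 cardiomyocytes.

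**Figure D1:**
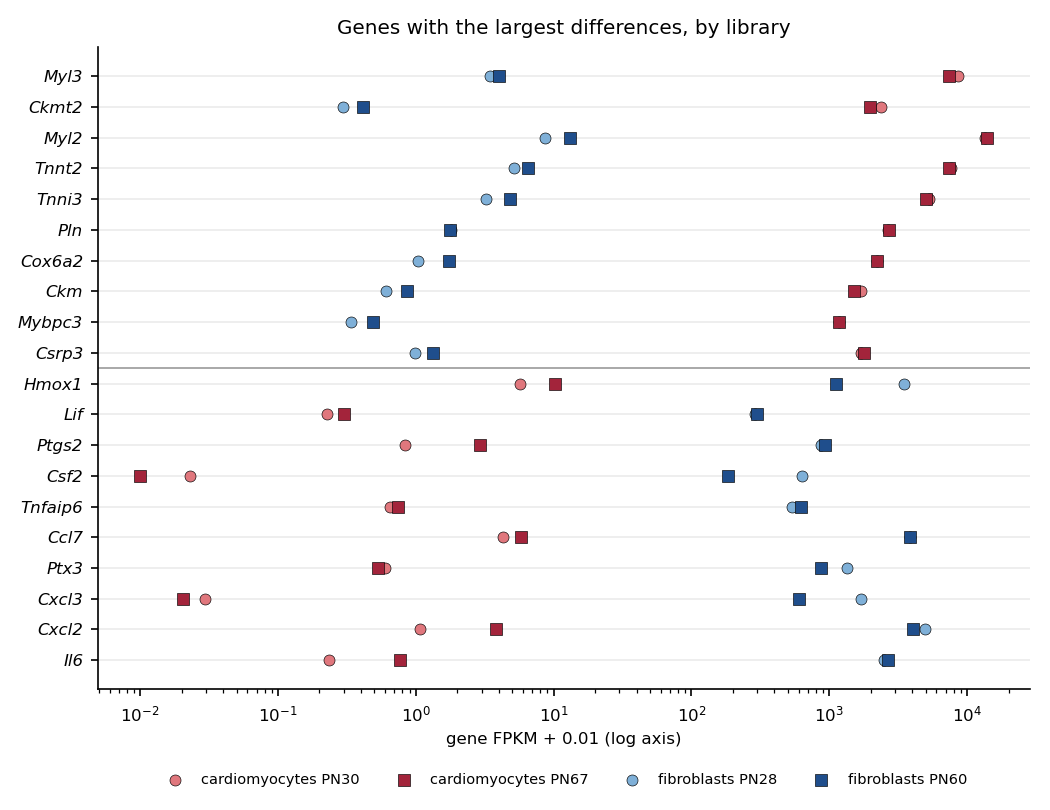
Level of the 10 genes with the largest called difference in each direction (rows, higher in cardiomyocytes above the line, lower below it) in each of the 4 libraries, as gene FPKM + 0.01 on a log axis. Each point is 1 library, and in every row the points of the cardiomyocytes and of the fibroblasts lie apart, as for Myl3 with 8650 and 7350 FPKM against 3.47 and 3.99 FPKM.

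The promoter windows of Myl3, Il6 and Ptx3, which belong to 3 of the widest differences, are shown as examples of windows with matches to textbook motifs of muscle genes or of inflammatory genes. They are RefSeq sequences of build GRCm38.p6, 250 bases before to 50 after the annotated start, on the coding strand, and capitals mark the motif matches. The Myl3 window is chr9:110763428-110763727 on the plus strand, with capitals at an M-CAT element (CATTCC, here once on each strand), which TEAD factors bind. The Il6 window is chr5:30012864-30013163 on the plus strand, with capitals at an AP-1 element (TGANTCA) and an NF-kB element. The Ptx3 window is chr3:66219637-66219936 on the plus strand, with capitals at overlapping NF-kB matches of both strands.
Myl3: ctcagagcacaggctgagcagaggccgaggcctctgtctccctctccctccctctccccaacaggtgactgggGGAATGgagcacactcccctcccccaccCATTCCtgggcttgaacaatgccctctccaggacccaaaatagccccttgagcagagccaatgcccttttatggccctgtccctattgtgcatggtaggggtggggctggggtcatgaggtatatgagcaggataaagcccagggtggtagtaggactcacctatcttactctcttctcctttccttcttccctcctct
Il6: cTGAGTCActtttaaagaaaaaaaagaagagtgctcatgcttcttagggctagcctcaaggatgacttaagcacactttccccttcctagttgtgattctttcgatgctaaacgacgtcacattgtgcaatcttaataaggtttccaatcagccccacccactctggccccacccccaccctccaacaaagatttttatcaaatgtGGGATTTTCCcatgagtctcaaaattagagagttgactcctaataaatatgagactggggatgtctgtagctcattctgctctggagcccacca
Ptx3: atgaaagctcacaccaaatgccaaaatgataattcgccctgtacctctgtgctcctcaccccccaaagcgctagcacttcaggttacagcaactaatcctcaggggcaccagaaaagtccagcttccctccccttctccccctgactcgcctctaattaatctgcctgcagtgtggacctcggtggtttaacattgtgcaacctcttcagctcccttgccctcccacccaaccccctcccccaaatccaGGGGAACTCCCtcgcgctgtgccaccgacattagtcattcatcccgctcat
Of the other 3 windows read, that of Ckmt2 held none of the motifs, that of Tnfaip6 held AP-1 and M-CAT matches and that of Pln a TATA box.
Motifs were searched by their letters on both strands in all 32851 promoter windows and in those of the 50 genes with the largest called difference in each direction, of which 42 higher genes (52 windows) and 38 lower genes (53 windows) had one. NF-kB matches occurred in 4.51% of all windows, 7.69% of the windows of the higher genes and 18.9% of the windows of the lower genes. AP-1 matches occurred in 7.81% of all windows, 7.69% of the higher genes' and 28.3% of the lower genes' windows, and the cyclic AMP response element (TGACGTCA) in 1.79%, 0 and 7.55%. The MEF2 element (CTA and TAG with 4 bases between) was in 3.69% of all windows, 11.5% of the higher genes' and none of the lower genes' windows, and M-CAT was in 14.7%, 23.1% and 17.0%. The TATA box (TATAAA) was in 13.6%, 15.4% and 26.4%. These shares describe letters in the windows, not bound sites, and a gene can have several windows.

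Contractile genes were higher in cardiomyocytes without exception among those tested. Of 40 sarcomere and Z-disc genes listed, 36 were tested and all 36 were called higher, with a median difference of 6.58, beside 0.01 over all genes. Tcap, the titin cap protein, had 912 and 1772 FPKM in cardiomyocytes and 1.59 and 1.48 FPKM in fibroblasts (8.98 ± 0.34), and was the one of the 5 most abundant that differed most between the ages. Myoz2, a Z-disc protein that binds calcineurin, had 779 and 750 FPKM against 0.948 and 1.07 FPKM in fibroblasts (8.58 ± 0.14). Hspb7, a small heat shock protein of muscle, had 678 and 1015 FPKM against 1.13 and 1.49 FPKM. Ankrd1, a stretch-responsive protein of the sarcomere and nucleus, had 864 and 1307 FPKM against 2.84 and 2.34 FPKM. Fhl2, a LIM protein, was far from silent in fibroblasts, with 1155 and 863 FPKM in cardiomyocytes and 61.9 and 58.4 FPKM in fibroblasts (4.05 ± 0.19). Among members picked after their values were seen, the slow myosin heavy chain Myh7 had 517 and 502 FPKM in cardiomyocytes and 0.102 and 0.10 FPKM in fibroblasts, and the smallest differences belonged to the dystrophin gene Dmd (1.94) and the ubiquitin ligase Fbxo32 (2.63).

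Calcium handling was mixed, read beside 37% called higher and 35% called lower over all genes. Of 28 genes tested, 19 were called higher, 6 lower and 3 neither, with a median of 2.80, and with whole gene sums alone the counts were 12 and 3. Pln had 2668 and 2715 FPKM in cardiomyocytes and 1.78 and 1.76 FPKM in fibroblasts. Casq2, the calcium store of the sarcoplasmic reticulum, had 498 and 328 FPKM against 1.42 and 2.31 FPKM in fibroblasts (7.17 ± 0.27). Srl, sarcalumenin, had 458 and 350 FPKM against 0.155 and 0.104 FPKM in fibroblasts (8.47 ± 0.19), and S100a1, a calcium-binding protein of the cytosol that acts on the pump and the release channel, had 810 and 950 FPKM against 11.5 and 17.7 FPKM. The release channel Ryr2, picked after its values were seen, had 141 and 124 FPKM against 0.0928 and 0.0834 FPKM. Among the lower genes, the plasma membrane calcium pump Atp2b4 had 4.35 and 5.21 FPKM in cardiomyocytes and 16.9 and 26.8 FPKM in fibroblasts (-1.94 ± 0.25). The named genes of the calcium store were thus higher and this pump of the cell surface lower.

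Ion channel and gap junction genes were mostly higher, with 25 of 31 tested called higher, 2 lower and 4 neither (median 2.61). The shares over all genes were 37% higher and 35% lower. The count of lower genes was 0 without the PN67 and 1 without the PN30 cardiomyocytes. Kcnip2, the subunit that sets the transient outward potassium current, had 143 and 130 FPKM in cardiomyocytes and 0.122 and 0.146 FPKM in fibroblasts (6.92 ± 0.16). Atp1b1, the beta subunit of the sodium pump, had 222 and 150 FPKM against 6.10 and 6.41 FPKM in fibroblasts (4.67 ± 0.22). The pump regulator Fxyd1, phospholemman, had 496 and 477 FPKM against 66.7 and 108 FPKM. Gja1, the connexin of ventricular gap junctions and also of fibroblasts, was not called, with 242 and 127 FPKM in cardiomyocytes and 122 and 203 FPKM in fibroblasts, where the groups overlap.

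Mitochondrial energy genes were higher nearly throughout, by a similar amount in each pathway. All 36 tested nuclear complex I genes were called higher (median 4.47), as were 39 of 40 genes of complexes II to V (4.24), all 21 tested of the tricarboxylic acid cycle (4.59) and 38 of 39 of fatty acid uptake and oxidation (4.98). The members not called were Cox6a1, with 283 and 188 FPKM in cardiomyocytes and 157 and 191 FPKM in fibroblasts, and Cpt1a, with 9.64 and 13.7 FPKM against 14.2 and 11.9 FPKM. Both are the general forms of genes with a muscle partner, and their groups overlap.

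Ndufa4, a subunit associated with cytochrome c oxidase and once assigned to complex I, was the most abundant of the complex I list, with 2328 and 2152 FPKM in cardiomyocytes and 71.4 and 68.1 FPKM in fibroblasts (5.0 ± 0.14). Atp5b, the catalytic subunit of ATP synthase, had 4077 and 3666 FPKM against 333 and 294 FPKM in fibroblasts (3.64 ± 0.15), and Atp5g1, a gene for its membrane ring, had 2377 and 2162 FPKM against 49.6 and 51.8 FPKM (5.47 ± 0.14). Among the cycle enzymes, citrate synthase (Cs) had 813 and 692 FPKM against 27.6 and 26.2 FPKM in fibroblasts (4.76 ± 0.15). Idh2, the mitochondrial NADP-dependent isocitrate dehydrogenase, stood out within that list with 979 and 1261 FPKM in cardiomyocytes and 5.39 and 9.49 FPKM in fibroblasts (7.10 ± 0.28). Fabp3, the heart fatty acid binding protein, had 3934 and 4876 FPKM against 8.31 and 6.05 FPKM in fibroblasts (9.09 ± 0.22), and Acadm, medium-chain acyl-CoA dehydrogenase, had 819 and 877 FPKM against 4.25 and 7.88 FPKM (6.97 ± 0.27). Hadhb, of the trifunctional enzyme, had 1305 and 1494 FPKM against 21.8 and 26.8 FPKM. Genes of the mitochondrial ribosome and protein import differed less, with 32 of 38 tested called higher, none lower and a median of 1.96, and Tufm, the mitochondrial elongation factor Tu, had 171 and 140 FPKM in cardiomyocytes and 27.5 and 22 FPKM in fibroblasts (2.62 ± 0.20).

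Glycolysis and glucose uptake genes were mostly higher, beside 37% higher and 35% lower over all genes. Of 29 genes tested, 21 were called higher, 7 lower and 1 neither (median 1.71), and 4 were lower without the PN67 cardiomyocytes. The muscle enolase Eno3 had 1325 and 1112 FPKM in cardiomyocytes and 1.81 and 1.52 FPKM in fibroblasts (8.84 ± 0.17), and the muscle phosphoglycerate mutase Pgam2 had 842 and 773 FPKM against 1.24 and 1.07 FPKM (8.56 ± 0.15). The lactate dehydrogenase Ldhb had 1465 and 1436 FPKM against 3.25 and 7.14 FPKM in fibroblasts. General isozymes picked after their values were seen were called higher too, by less: Eno1 had 101 and 84.8 FPKM against 38.6 and 35.7 FPKM in fibroblasts (1.31 ± 0.16), and Ldha had 663 and 532 FPKM against 211 and 286 FPKM (1.29 ± 0.20). Lower were the glucose transporter Slc2a1, with 5.29 and 6.85 FPKM against 119 and 75.8 FPKM in fibroblasts (-3.75 ± 0.28), Pfkfb3, which makes the activator of phosphofructokinase, with 2.22 and 3.54 FPKM against 27.6 and 26 FPKM (-2.85 ± 0.23), and Eno2, the neuronal enolase, with 1.53 and 1.84 FPKM against 14.6 and 22.2 FPKM (-2.81 ± 0.24).

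**Figure D2:**
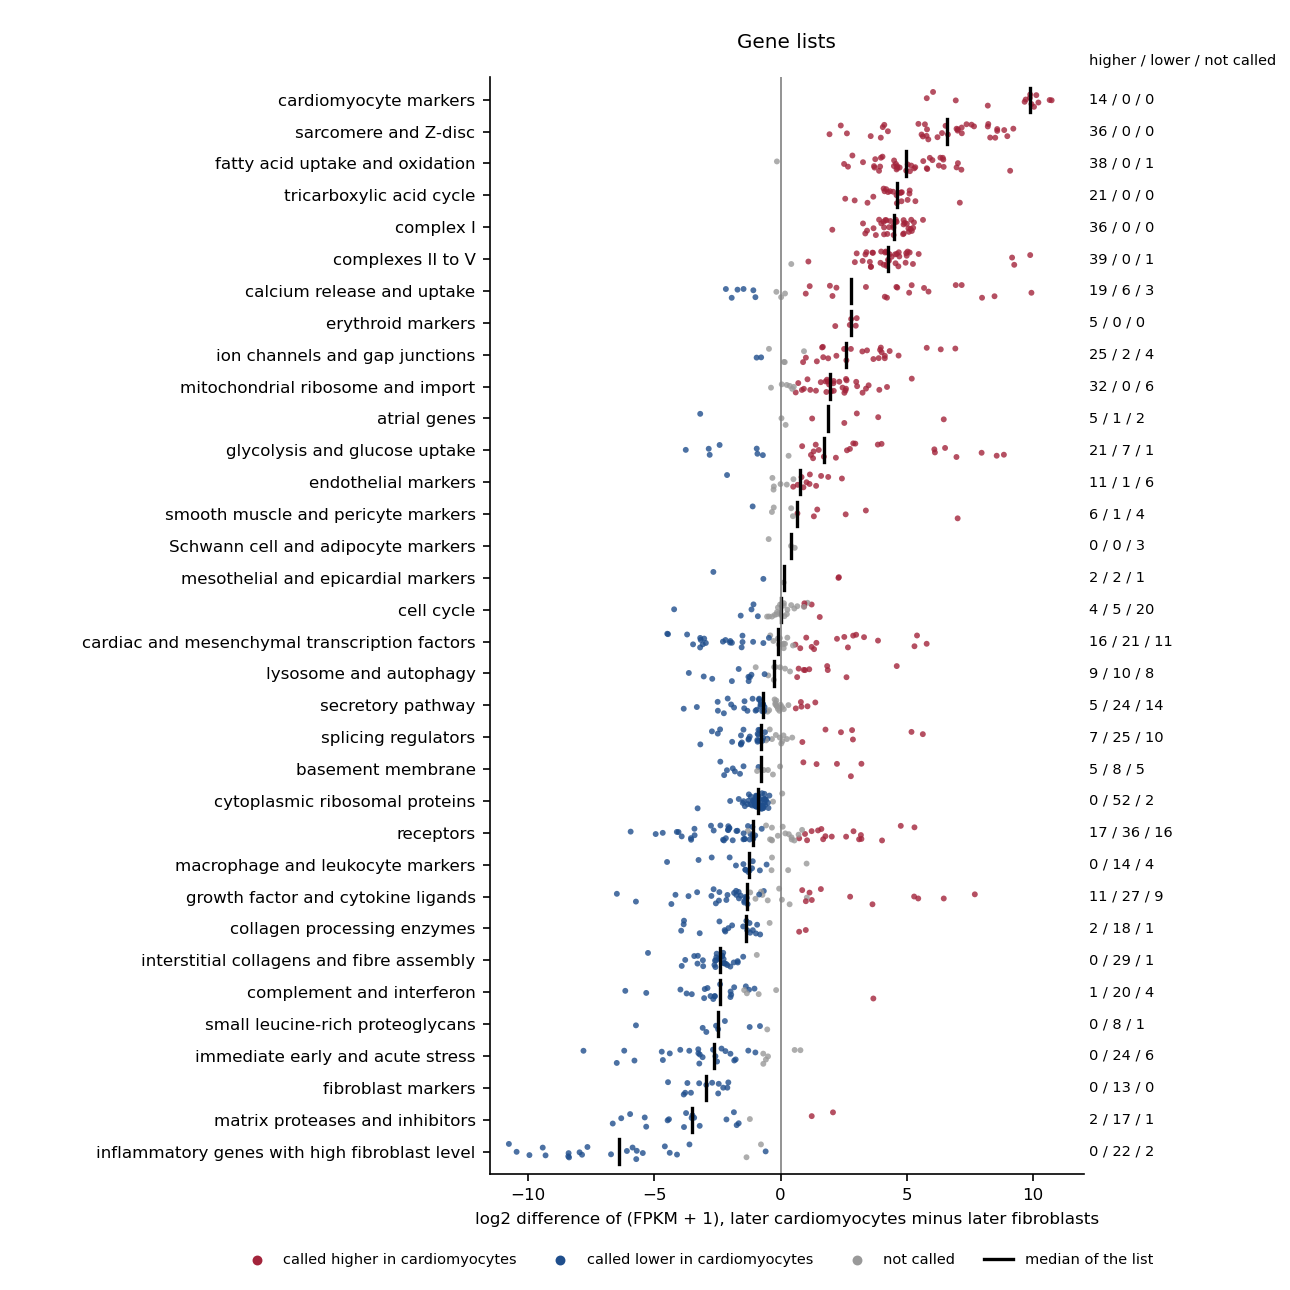
Log2 difference of (FPKM + 1), later cardiomyocytes minus later fibroblasts, of the tested members of 34 gene lists, 1 point per gene, coloured by call, with the median of each list as a bar and the counts called higher, lower and not called at the right. The lists of muscle and mitochondrial genes lie to the right of 0, with medians from 4.24 to 9.88 for the upper 6, and the inflammatory list lies farthest to the left with a median of -6.40.

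Many of these enzymes exist in a muscle form and a general form, and the share of the muscle form in the summed FPKM of the pair was read in each library. Of 32 pairs listed, 22 had whole values for both genes. In 21 of the 22 both cardiomyocyte libraries lay above both fibroblast libraries, and the muscle form held the majority in cardiomyocytes in 19 and in fibroblasts in 2. Since the pairs were chosen as muscle and general forms, these counts are a description. A higher share did not always mean a higher level of the form listed as muscle, as for Ptbp2 below. For creatine kinase, Ckm held 97.3 and 97.8% of Ckm and Ckb in cardiomyocytes and 1.65 and 1.19% in fibroblasts. For enolase, Eno3 held 92.9 and 92.9% of Eno3 and Eno1 against 4.47 and 4.09% in fibroblasts, and for phosphoglycerate mutase Pgam2 held 93.4 and 94.5% against 1.25 and 1.05%. Glucose transport showed the same contrast, with Slc2a4, the insulin-responsive GLUT4, at 97.4 and 96.8% of Slc2a4 and Slc2a1 in cardiomyocytes and 0.722 and 2.21% in fibroblasts.

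The subunits of cytochrome c oxidase behaved alike. Cox6a2 held 88.7 and 92.1% of its pair in cardiomyocytes and 0.647 and 0.894% in fibroblasts, Cox7a1 held 86.7 and 87.9% against 7.48 and 10.5%, and Cox8b held 86.5 and 88.8% against 1.74 and 1.86%. The general partners were not reduced in cardiomyocytes: Cox7a2 had 572 and 501 FPKM against 52.9 and 59.1 FPKM in fibroblasts (3.25 ± 0.15), and Cox8a had 360 and 282 FPKM against 130 and 171 FPKM (1.10 ± 0.20). In other pairs the general form was called lower in cardiomyocytes. Acsl4, an acyl-CoA synthetase, had 3.62 and 3.09 FPKM in cardiomyocytes and 82.1 and 62.2 FPKM in fibroblasts (-4.04 ± 0.21), while Acsl1 held 98.9 and 99.1% of the pair in cardiomyocytes and 9.91 and 8.57% in fibroblasts. The ribosomal protein Rpl3l held 72.1 and 69.0% of Rpl3l and Rpl3 in cardiomyocytes and 0.0798 and 0.0751% in fibroblasts, with Rpl3 at 71.9 and 78.0 FPKM against 205 and 217 FPKM. A few pairs were less divided: Ptbp2 held 20.4 and 21.9% of Ptbp2 and Ptbp1 against 5.74 and 5.0%. Cav3, the muscle caveolin, held 40.0 and 28.1% of Cav3 and Cav1 in cardiomyocytes and 0.383 and 2.59% in fibroblasts. Ckmt2 was the majority form in both cell types, since Ckmt1 was below 0.5 FPKM in all 4 libraries. The single exception in direction was glycogen phosphorylase, where Pygm held 60.6 and 59.97% of Pygm and Pygb in cardiomyocytes and 63.2 and 60.8% in fibroblasts. Both phosphorylase genes were much higher in cardiomyocytes, Pygm with 473 and 482 FPKM against 5.19 and 6.87 FPKM and Pygb with 307 and 322 FPKM against 3.02 and 4.43 FPKM in fibroblasts.

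**Figure D3:**
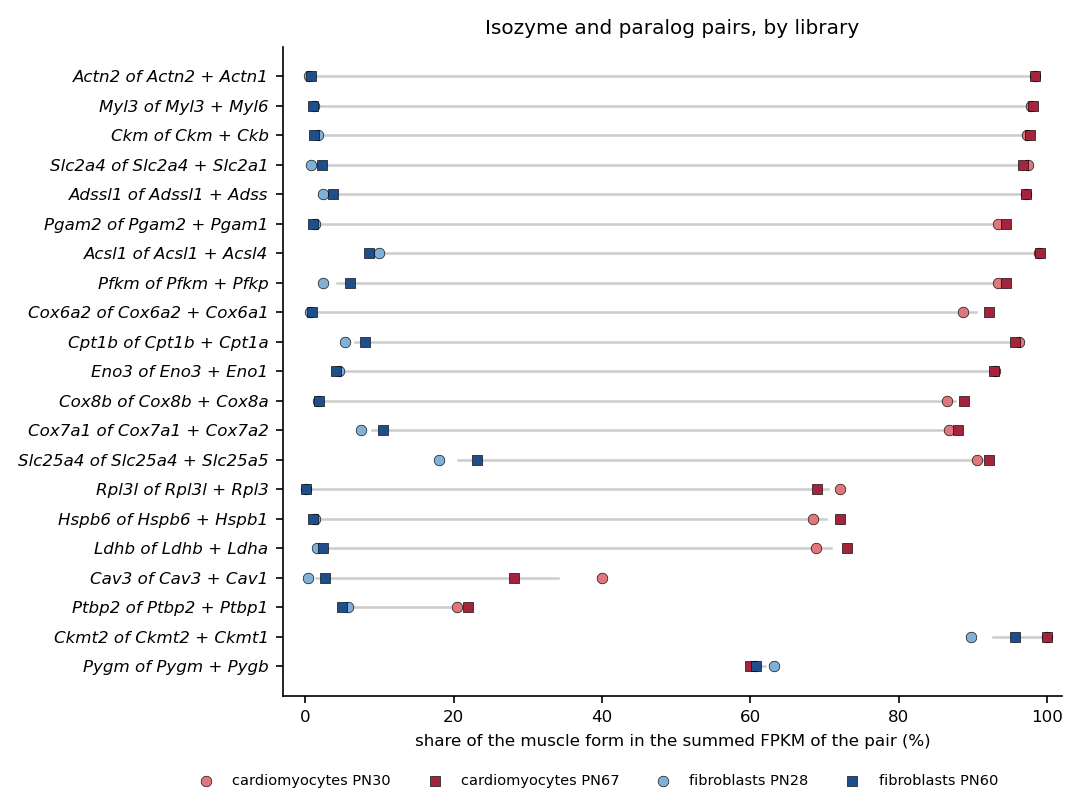
Share of the form listed as the muscle form in the summed FPKM of its pair (percent). Drawn are 21 of the 22 pairs with whole values, 1 point per library, with a line between the means of the cell types. Both cardiomyocyte points lie to the right of both fibroblast points in all pairs drawn except Pygm of Pygm and Pygb.

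Matrix genes were lower in cardiomyocytes. Of 30 tested genes of interstitial collagens and fibre assembly, 29 were called lower and none higher (median -2.39), and of 9 small leucine-rich proteoglycans 8 were called lower and none higher (-2.47), or 5 without the PN30 cardiomyocytes. Mfap5, a microfibril protein, had 31.1 and 20.8 FPKM in cardiomyocytes and 427 and 312 FPKM in fibroblasts (-3.78 ± 0.27). Col6a1, a chain of the beaded-filament collagen VI, had 55.5 and 29.0 FPKM against 252 and 258 FPKM (-2.62 ± 0.31). Bgn, biglycan, had 105 and 121 FPKM against 820 and 1158 FPKM in fibroblasts (-3.08 ± 0.20), and Prg4, lubricin, which is not itself leucine-rich, showed the largest gap of its list with 1.35 and 2.48 FPKM against 162 and 143 FPKM (-5.73 ± 0.25). These list medians lie beside a median of -2.94 for the fibroblast markers. Several matrix genes were also lower at PN67 than at PN30 in cardiomyocytes: Col15a1, a collagen next to basement membranes, had 84.6 and 29.2 FPKM in cardiomyocytes, against 236 and 272 FPKM in fibroblasts (-2.31 ± 0.48).

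The enzymes that modify and cut the matrix followed. Of 21 collagen processing enzymes tested, 18 were called lower and 2 higher (median -1.36), and the count of higher genes was 1 without the PN67 and 0 without the PN30 cardiomyocytes. P4hb, the shared subunit of prolyl 4-hydroxylase, had 103 and 91.7 FPKM in cardiomyocytes and 220 and 244 FPKM in fibroblasts (-1.23 ± 0.14), and Pcolce, which speeds removal of the collagen propeptide, had 47.4 and 38.8 FPKM against 136 and 205 FPKM (-1.92 ± 0.23). Of 20 matrix proteases and inhibitors tested, 17 were called lower and 2 higher (median -3.51), and 1 was called higher without any one of the 4 libraries. Plaur, the urokinase receptor, had 2.04 and 1.77 FPKM against 277 and 310 FPKM in fibroblasts (-6.65 ± 0.15). Timp1, a protease inhibitor, had 2.16 and 1.41 FPKM against 255 and 191 FPKM (-6.31 ± 0.24), while its relative Timp2 had 48.8 and 49.1 FPKM against 180 and 274 FPKM (-2.14 ± 0.22). Mmp2, gelatinase A, had 50.7 and 43.1 FPKM in cardiomyocytes and 510 and 523 FPKM in fibroblasts (-3.42 ± 0.15). Plaur and Timp1 thus had wider gaps than any fibroblast marker tested.

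Basement membrane genes went both ways, with 5 of 18 called higher, 8 lower and 5 neither (median -0.77), beside 37% higher and 35% lower over all genes. Nid1, nidogen, had 50.1 and 47.1 FPKM in cardiomyocytes and 294 and 232 FPKM in fibroblasts (-2.39 ± 0.18), and the laminin chain Lamb1 had 39.9 and 30.6 FPKM against 162 and 179 FPKM (-2.23 ± 0.18). Higher were receptors and 2 laminin chains: Dag1, dystroglycan, had 133 and 116 FPKM against 23.0 and 29.2 FPKM in fibroblasts (2.23 ± 0.17), and the laminin-binding integrin Itga6 had 92.5 and 90.0 FPKM against 15.0 and 10.5 FPKM (2.78 ± 0.22). The laminin chain Lama5 had 17.4 and 25.96 FPKM in cardiomyocytes and 7.16 and 7.58 FPKM in fibroblasts (1.43 ± 0.24), and Lamb2 had 98.9 and 91.1 FPKM against 45.1 and 57.4 FPKM (0.90 ± 0.17).

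Inflammatory genes formed the far end of the lower side. Of 26 listed genes 24 were tested, and 22 were called lower, none higher and 2 neither, with a median of -6.40. The list was drawn up from genes known to be high in fibroblast libraries of this series. Neither its direction nor the size of its gap is therefore independent evidence. The 24 genes summed to 56.6 and 92.4 FPKM in cardiomyocytes and 19650 and 16740 FPKM in fibroblasts. Their level in cardiomyocytes was a median of 0.170% of that in fibroblasts, whereas that of the 13 fibroblast markers was 12.7%. Ccl7, a chemokine for monocytes, had 4.29 and 5.82 FPKM in cardiomyocytes and 3870 and 3824 FPKM in fibroblasts (-9.31 ± 0.18). Lif, a cytokine of the interleukin 6 family, had 0.216 and 0.290 FPKM against 288 and 300 FPKM (-7.86 ± 0.15). The members not called were Lcn2, with 0.495 and 3.51 FPKM in cardiomyocytes and 4.15 and 2.92 FPKM in fibroblasts, and Il1rl1, with 0.175 and 0.0575 FPKM against 4.80 and 0.397 FPKM.

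Levels in whole ventricle and in neonatal cells were read beside these, with the ventricles scaled apart and made with another kit. Il6 had 0.0203 and 0 FPKM in the PN28 and PN90 ventricles, and Cxcl2 had 0.0819 and 0.201 FPKM. Ptx3 had 0.324 and 0.276 FPKM and Tnfaip6 had 0.382 and 0.333 FPKM in the same ventricles. The fibroblast markers were higher there than these inflammatory genes: Dpt had 106 and 89.3 FPKM and Tcf21 9.47 and 7.97 FPKM. In the neonatal cells Il6 had 6.89 and 9.06 FPKM in cardiomyocytes and 10.8 and 4.98 FPKM in fibroblasts, and Ptx3 had 14.8 and 13 FPKM in cardiomyocytes and 157 and 143 FPKM in fibroblasts. The later fibroblasts, with 2496 and 2662 FPKM of Il6, were thus above all 6 of these ventricle and neonatal libraries, while Dpt was at 924 and 913 FPKM in neonatal fibroblasts and 746 and 963 FPKM in later ones.

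**Figure D4:**
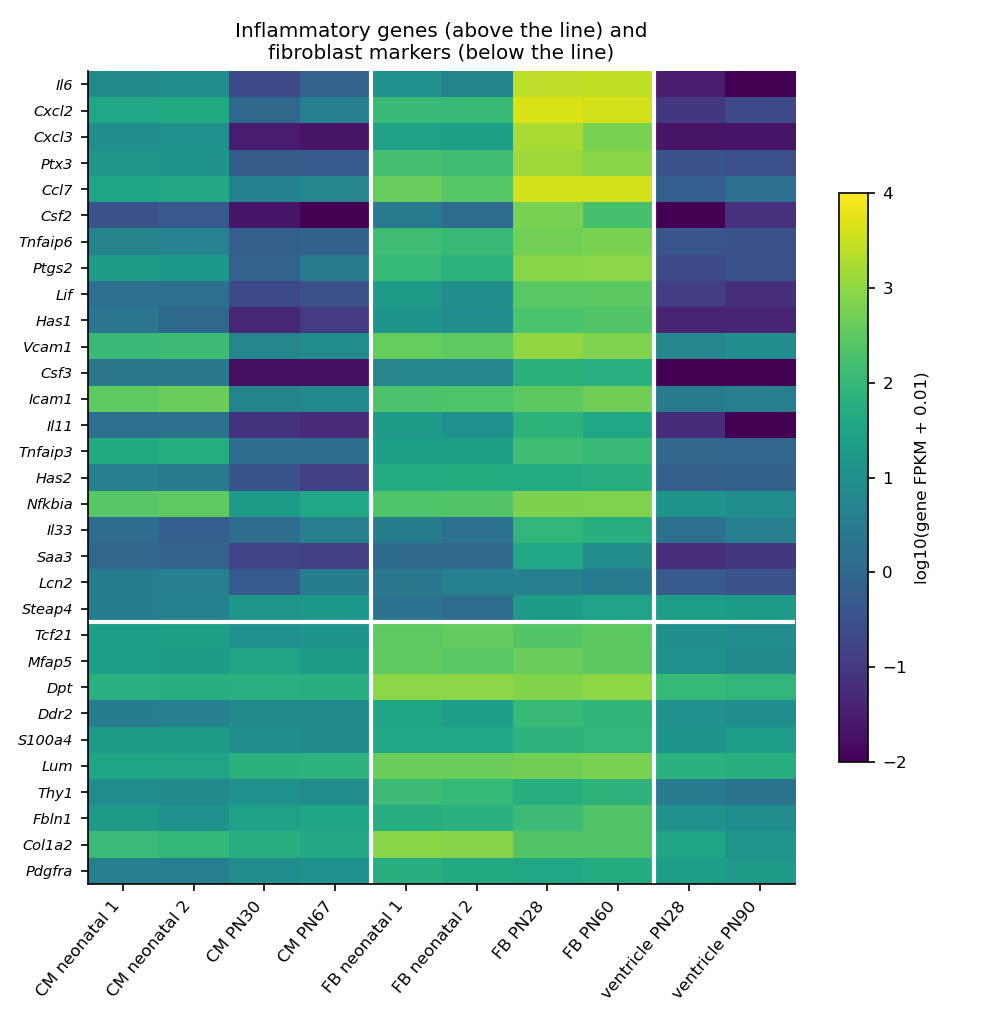
Level of 21 inflammatory genes (above the white line) and 10 fibroblast markers (below it) in 10 libraries, as log10(gene FPKM + 0.01). CM are cardiomyocytes, FB are cardiac fibroblasts, and the last 2 columns are ventricles; Il6 is brightest in the later fibroblasts (2496 and 2662 FPKM), whereas Dpt has 924 and 913 FPKM in neonatal and 746 and 963 FPKM in later fibroblasts.

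Immediate early and acute stress genes were lower in cardiomyocytes in most cases, with 24 of 30 tested called lower, none higher and 6 neither (median -2.63). The share called lower over all genes was 35%. Maff, a small bZIP factor, had 4.07 and 8.13 FPKM in cardiomyocytes and 313 and 458 FPKM in fibroblasts (-5.79 ± 0.34), and Ier3 had 32.7 and 41.1 FPKM against 666 and 950 FPKM (-4.39 ± 0.22). Junb had 60.7 and 156 FPKM against 450 and 714 FPKM in fibroblasts (-2.52 ± 0.48). The 6 members not called were Fos, Jun, Jund, Dusp1, Btg2 and Klf2, of which Fos had 62.8 and 184 FPKM in cardiomyocytes and 77.7 and 397 FPKM in fibroblasts, Dusp1 had 78.6 and 142 FPKM against 108 and 239 FPKM, and Klf2 had 30.6 and 63.9 FPKM against 21 and 31 FPKM. For Fos and Dusp1 the groups overlap, and both cell types were higher at the older age, which widens the error of this group.

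Complement and interferon genes gave 20 lower, 1 higher and 4 not called of 25 tested (median -2.40), beside 35% lower over all genes. B2m, the light chain of MHC class I, had 199 and 223 FPKM in cardiomyocytes and 1440 and 1172 FPKM in fibroblasts (-2.60 ± 0.18). Serping1, the inhibitor of complement C1, had 64.8 and 116 FPKM against 546 and 793 FPKM (-2.90 ± 0.33). The interferon-induced genes Isg15 and Ifit1 were uneven in fibroblasts: Isg15 had 8.31 and 3.43 FPKM in cardiomyocytes and 499 and 133 FPKM in fibroblasts (-5.32 ± 0.71), and Ifit1 had 1.55 and 0.782 FPKM against 384 and 59.8 FPKM (-6.15 ± 0.88). Both were several times higher at PN28 than at PN60 in fibroblasts. The exception was Cd59a, which shields cells from the complement pore, with 79.0 and 71.5 FPKM in cardiomyocytes and 3.95 and 6.33 FPKM in fibroblasts (3.67 ± 0.23).

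Transcription factors fell into both directions, 16 higher, 21 lower and 11 neither of 48 tested (median -0.09), beside 37% higher and 35% lower over all genes. Hopx, a homeodomain protein without DNA binding, had 250 and 220 FPKM in cardiomyocytes and 3.13 and 3.47 FPKM in fibroblasts (5.79 ± 0.15). Nkx2-5, the early cardiac homeobox factor, had 48.0 and 39.6 FPKM against 0.0394 and 0.0699 FPKM in fibroblasts (5.4 ± 0.18), and Irx4, the ventricular Iroquois factor, had 17.7 and 10.6 FPKM against 0.00975 and 0.0156 FPKM (3.86 ± 0.26). The retinoid X receptor gene Rxrg had 44.6 and 45 FPKM against 0.175 and 0.148 FPKM (5.30 ± 0.16). On the fibroblast side, Sox9, a factor of cartilage and fibrosis, had 0.867 and 0.665 FPKM in cardiomyocytes and 21.6 and 22.8 FPKM in fibroblasts (-3.70 ± 0.17), and Twist2, a mesenchymal factor, had 0.520 and 0.533 FPKM against 14.9 and 11.4 FPKM (-3.19 ± 0.20). Nfkb2, of the NF-kB family, had 10.2 and 8.48 FPKM against 116 and 113 FPKM (-3.47 ± 0.16), and Cebpb, which acts with NF-kB on cytokine genes, had 11.5 and 24.5 FPKM against 173 and 154 FPKM (-3.18 ± 0.36). Some factors known for the heart were not called, including Tbx20 (23.9 and 15.3 FPKM in cardiomyocytes, 14.9 and 26 FPKM in fibroblasts), Mef2a and Mef2d, while Gata4, picked after its values were seen, had 51.8 and 45.7 FPKM against 17.2 and 21 FPKM (1.33).

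Secreted ligands were lower more often than higher in cardiomyocytes, with 27 lower, 11 higher and 9 neither of 47 tested (median -1.34). These counts stand beside 35% lower and 37% higher over all genes. Csf1, the macrophage growth factor, had 20.9 and 14.8 FPKM in cardiomyocytes and 1345 and 740 FPKM in fibroblasts (-5.73 ± 0.35). Inhba, the activin A subunit, had 0.765 and 0.753 FPKM against 265 and 94.2 FPKM in fibroblasts (-6.48 ± 0.50), and Ccn2, connective tissue growth factor, had 46.2 and 73.8 FPKM against 604 and 581 FPKM (-3.31 ± 0.25). The ligands higher in cardiomyocytes were led by the natriuretic peptides: Nppb had 380 and 255 FPKM against 0.855 and 0.228 FPKM in fibroblasts (7.69 ± 0.30), and Nppa, the atrial form, had 84.2 and 111 FPKM against 0.0683 and 0.155 FPKM (6.46 ± 0.21). Of the 8 atrial genes tested, Nppa among them, 5 were called higher and 1 lower. Sln, sarcolipin, had 5.19 and 12.4 FPKM in cardiomyocytes and 0.0863 and 0.165 FPKM in fibroblasts. Vegfb, a relative of the endothelial growth factor, had 196 and 203 FPKM in cardiomyocytes and 4.38 and 3.97 FPKM in fibroblasts (5.29 ± 0.15), and Fgf13, an intracellular regulator of sodium channels, had 52.0 and 53.6 FPKM against 0.181 and 0.284 FPKM (5.45 ± 0.17).

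Receptors followed a similar split, 36 lower, 17 higher and 16 neither of 69 tested (median -1.10), beside 35% lower and 37% higher over all genes. Fgfr1 had 11.9 and 13.1 FPKM in cardiomyocytes and 1143 and 607 FPKM in fibroblasts (-5.94 ± 0.33). Itga5, the fibronectin receptor chain, had 25.5 and 15.7 FPKM against 394 and 340 FPKM (-4.11 ± 0.26), and Tnfrsf1b, the second TNF receptor, had 4.30 and 4.34 FPKM against 222 and 122 FPKM (-4.95 ± 0.32). Among the receptors called higher, the adrenergic receptor Adra1b had 32.1 and 21.4 FPKM against 0.799 and 0.578 FPKM in fibroblasts (4.02 ± 0.24), the angiotensin receptor Agtr1a had 14.2 and 12.1 FPKM against 0.412 and 0.725 FPKM (3.18 ± 0.19), and the insulin receptor Insr had 22.6 and 22.1 FPKM against 1.35 and 2.16 FPKM (3.11 ± 0.20). The insulin receptor and the transporter Slc2a4 were thus both higher in cardiomyocytes.

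Genes of protein synthesis and secretion differed by smaller steps. Their counts stand beside 35% lower and 37% higher over all genes. Of 54 cytoplasmic ribosomal protein genes tested, 52 were called lower in cardiomyocytes and none higher, with a median of -0.88, and only 1 was lower by at least 4-fold. Rplp0, of the ribosomal stalk, had 541 and 558 FPKM in cardiomyocytes and 993 and 1008 FPKM in fibroblasts (-0.85 ± 0.13), a difference several times the gap between the ages. Many of these genes have processed pseudogenes, which makes their single values uncertain. Of 43 secretory pathway genes tested, 24 were called lower, 5 higher and 14 neither (median -0.69), but 11 were called lower without the PN67 cardiomyocytes, and the higher count was 2 without either cardiomyocyte library. Hspa5, the chaperone BiP of the endoplasmic reticulum, had 324 and 217 FPKM in cardiomyocytes and 780 and 1190 FPKM in fibroblasts (-1.84 ± 0.28), whereas the Golgi matrix gene Golga2 had 25.9 and 27.4 FPKM against 9.28 and 10.3 FPKM (1.38 ± 0.16).

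Lysosome and autophagy genes went both ways, with 9 of 27 tested called higher, 10 lower and 8 neither (median -0.25), shares near the 37% and 35% over all genes. The mitophagy receptors Bnip3 (88.1 and 132 FPKM in cardiomyocytes, 2.74 and 4.49 FPKM in fibroblasts, 4.60 ± 0.29) and Fundc1 (12.4 and 12.5 FPKM against 2.54 and 3.00 FPKM, 1.84 ± 0.17) were higher. The autophagosome protein gene Map1lc3a had 379 and 407 FPKM against 51.9 and 79.3 FPKM in fibroblasts. The cargo adaptor Sqstm1 was lower, with 164 and 264 FPKM in cardiomyocytes and 2095 and 1446 FPKM in fibroblasts (-3.04 ± 0.32), and so was the lysosomal protease Ctsz, with 23.5 and 22.5 FPKM against 190 and 130 FPKM (-2.71 ± 0.23), a gene that macrophages also express.

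Most cell cycle genes were not called: of 29 tested, 4 were called higher, 5 lower and 20 neither. Of all genes tested, 71.9% were called, 37% higher and 35% lower. The count of higher genes was 7 with a pseudocount of 0.1 or with an age block, and 8 in the fit of 8 cell libraries. Without the PN30 cardiomyocytes the counts were 2 and 3, and 1 was lower without the PN67 cardiomyocytes. The largest difference was that of the cell cycle inhibitor Cdkn1a, with 9.88 and 20.6 FPKM in cardiomyocytes and 263 and 312 FPKM in fibroblasts (-4.22 ± 0.35). The proliferation marker Mki67 was low in all 4 libraries and not called, with 1.81 and 0.620 FPKM in cardiomyocytes and 2.99 and 1.18 FPKM in fibroblasts.

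Splicing regulators gave 25 lower, 7 higher and 10 not called of 42 tested (median -0.76), and 15 lower without the PN67 cardiomyocytes. Over all genes 35% were called lower and 37% higher. Rbm20, which directs the splicing of titin in heart, had 60.3 and 50.6 FPKM in cardiomyocytes and 0.149 and 0.115 FPKM in fibroblasts (5.63 ± 0.18). The muscle regulator Rbm24 had 56.1 and 60.1 FPKM against 0.776 and 0.493 FPKM (5.18 ± 0.18). Ptbp1, which represses many muscle exons, had 19.0 and 15.9 FPKM against 118 and 235 FPKM in fibroblasts (-3.18 ± 0.33), and Hnrnph1 had 70.4 and 66.8 FPKM against 312 and 437 FPKM (-2.40 ± 0.19).

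Isoform use differed as well. An isoform was tested by the log2 ratio of its FPKM to that of the other isoforms of its gene, and called at a limma adjusted p below 0.05 with a share difference of at least 10 percentage points. Of 10803 isoforms of 3821 genes, 2887 (26.7%) in 1651 genes were called, 1612 with a higher and 1275 with a lower share in cardiomyocytes. The gene as a whole was called higher in 640 of the 1651 genes, lower in 561 and not called in 447, and 3 were not tested as genes. A difference of at least 50 points was reached by 132 isoforms of 88 genes. Among annotated classes, 173 retained-intron isoforms had a lower and 48 a higher share in cardiomyocytes of 1397 tested, and 74 against 34 of 626 isoforms subject to nonsense-mediated decay did so. Of protein-coding isoforms, 896 had a lower and 1438 a higher share of 7649 tested. Cufflinks estimates shares from reads that isoforms have in common, so a share carries model error that these counts do not show.

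The widest shift was in Mfn2, mitofusin 2, which fuses mitochondria. Its isoform Mfn2-201 held 94.8 and 94.8% of the gene in cardiomyocytes and 3.35 and 2.53% in fibroblasts, while Mfn2-204 held 1.03 and 1.06% against 89.2 and 90.9% (log2 ratio -8.94 ± 0.18, adjusted p = 8.71e-05, limma). Ppp2r3a, a regulatory subunit of protein phosphatase 2A, switched between its 2 tested isoforms, with Ppp2r3a-201 at 94.7 and 92.8% in cardiomyocytes and 5.50 and 5.54% in fibroblasts. Pde4dip, a Golgi and centrosome scaffold also called myomegalin, used Pde4dip-203 at 72.6 and 74.5% against 6.74 and 5.55%, and its short form Pde4dip-201 at 0.595 and 0.656% against 92.1 and 92%. The ubiquitin ligase subunit Fbxw7 used Fbxw7-202 at 89.6 and 84.2% in cardiomyocytes, and this isoform was listed at 0 and 0.341% in fibroblasts. In each of these genes the ages of a cell type lay within 6 points of each other and the cell types more than 60 points apart. Phka1, a subunit of phosphorylase kinase, had Phka1-201 at 90.0 and 86.5% against 1.75 and 3.03% in fibroblasts. Immt, which shapes mitochondrial cristae, had Immt-205 at 79.6 and 79.7% against 7.75 and 9.5%, and the LIM protein Pdlim7 had Pdlim7-202 at 73.3 and 80.7% against 4.77 and 5.12%.

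Genes that were not called as a whole could still change their isoforms. Mef2a, a transcription factor of muscle genes, had 54.3 and 43.5 FPKM in cardiomyocytes and 52.2 and 53.7 FPKM in fibroblasts, yet Mef2a-208 held 76.0 and 73.0% against 40.5 and 42.2% (log2 ratio 2.00 ± 0.19, adjusted p = 0.00114, limma), and Mef2a-204 was at or near 0 in cardiomyocytes against 22.5 and 23.5% in fibroblasts. Its relative Mef2d had 52.4 and 52.8 FPKM against 41.6 and 57.1 FPKM, with Mef2d-204 at 15.1 and 15.0% in cardiomyocytes and 52.7 and 43.2% in fibroblasts. Of the 52 genes listed for isoforms, 25 were tested and 21 had a called isoform, beside 1651 of all 3821 genes tested.

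The alternative exons of 3 genes of energy metabolism are shown because they are known cases of tissue-specific splicing and their use differed widely here. Pkm, pyruvate kinase, has mutually exclusive ninth exons, of which the M1 form (Pkm-202) is the one of adult muscle and the M2 form (Pkm-201) can be switched between an active and a less active state. Pkm-202 held 94 and 94.1% of the gene in cardiomyocytes and 29.8 and 33.4% in fibroblasts (log2 ratio 5.07 ± 0.19, adjusted p = 0.000132, limma). Slc25a3, the mitochondrial phosphate carrier, has the muscle form with the exon of Slc25a3-206 and the general form with that of Slc25a3-201. The muscle exon was held by 97.0 and 97.2% of the FPKM with either exon in cardiomyocytes and 5.15 and 8.82% in fibroblasts. The sequences are GENCODE transcripts on the coding strand, the genes lie on chromosome 9 (Pkm) and chromosome 10 (Slc25a3), and capitals mark bases that differ between the aligned exons of a pair.
Pkm-202: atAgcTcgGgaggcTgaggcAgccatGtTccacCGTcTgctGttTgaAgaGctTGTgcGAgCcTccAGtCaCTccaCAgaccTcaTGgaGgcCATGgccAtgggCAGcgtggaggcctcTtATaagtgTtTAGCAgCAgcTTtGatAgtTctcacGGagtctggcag
Pkm-201: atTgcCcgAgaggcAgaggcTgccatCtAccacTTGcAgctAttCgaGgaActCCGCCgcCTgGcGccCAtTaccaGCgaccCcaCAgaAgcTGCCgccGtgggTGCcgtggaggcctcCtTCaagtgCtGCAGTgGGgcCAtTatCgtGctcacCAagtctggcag
Slc25a3-206: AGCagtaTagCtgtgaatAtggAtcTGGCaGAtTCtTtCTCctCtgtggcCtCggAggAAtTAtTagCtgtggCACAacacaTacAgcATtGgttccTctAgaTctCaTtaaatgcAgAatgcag
Slc25a3-201: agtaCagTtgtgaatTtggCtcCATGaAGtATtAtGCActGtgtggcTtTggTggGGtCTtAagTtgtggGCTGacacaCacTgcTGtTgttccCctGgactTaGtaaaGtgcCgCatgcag
The Pkm exons have 167 bases each and share 108 of 169 aligned columns (63.9%), and the Slc25a3 exons have 125 and 122 bases and share 80 of 126 (63.5%). In each gene the exon of the muscle form was thus the majority in both cardiomyocyte libraries and the minority in both fibroblast libraries. Atp5c1, the gamma subunit of ATP synthase on chromosome 2, has a 37-nt exon near its end that heart and skeletal muscle skip. Its inclusion adds 1 codon before a TAA stop codon that lies in the exon itself. Without the exon, the coding sequence ends at another TAA, in the following exon. The coding ends with the exon (Atp5c1-203) and without it (Atp5c1-201) are given with capitals for the bases after the junction.
Atp5c1-203: atctctggggctgctgctctGGATTAA
Atp5c1-201: atctctggggctgctgctctGTAA
The exon was included in 5.46 and 5.62% of the FPKM in cardiomyocytes and 68.6 and 62.6% in fibroblasts, and Atp5c1-201 held 94.2 and 93.9% of the gene against 31.1 and 37.1%.

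**Figure D5:**
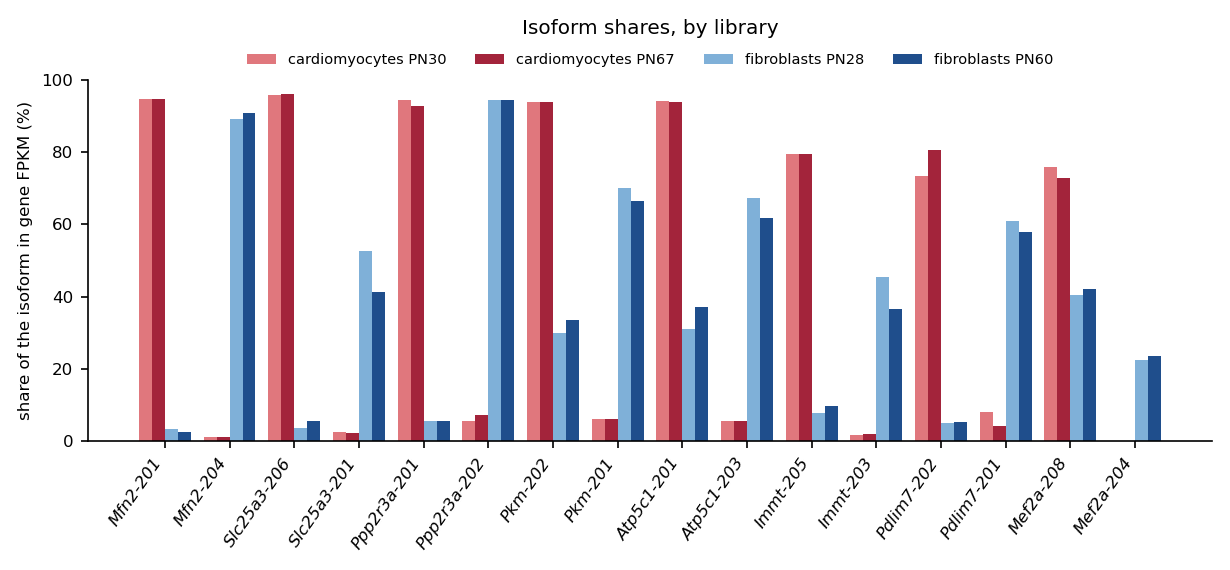
Share of single isoforms in the FPKM of their gene (percent) in each of the 4 libraries, cardiomyocytes left of fibroblasts for each isoform. The bars of the 2 ages of a cell type are of similar height, as for Mfn2-201 with 94.8 and 94.8% in cardiomyocytes and 3.35 and 2.53% in fibroblasts.

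The difference between the cell types was also set against that between neonatal cardiomyocytes and neonatal fibroblasts, in a fit of all 8 cell libraries. The interaction, the later minus the neonatal difference, was called for 7071 of 12087 genes (58.5%), of which 3886 (32.2%) had a more positive and 3185 (26.4%) a more negative difference in the later cells. In that fit 9375 genes were called between the later and 4914 between the neonatal cell types, and 4339 in both, 4115 of these in the same direction. Cardiomyocyte markers had a median difference of 9.94 later and 3.34 neonatally, with 14 of 14 called for a more positive difference, and complex I genes had 4.45 and 1.93, with 36 of 36. Myl3 had 2375 and 2477 FPKM in neonatal cardiomyocytes and 255 and 216 FPKM in neonatal fibroblasts, so neonatal fibroblast libraries carried RNA of cardiomyocyte markers at a much higher level than the later ones did. The part of that RNA in the interaction of muscle genes was not tested. Fibroblast markers had medians of -2.97 later and -3.39 neonatally, with 4 more positive, 3 more negative and 4 not called of 11. The difference of Dpt was -3.73 later and -3.85 neonatally, and its interaction was 0.13 (adjusted p = 0.552, limma).

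The inflammatory list had medians of -6.77 later and -1.20 neonatally, with 22 of 23 called for a more negative later difference and none for a more positive one. Its genes were chosen for their high level in the later fibroblasts, so this count is a description and no independent evidence. The interaction of Il6 was -10.96 (adjusted p = 6e-06, limma), the most negative of all genes called, with a neonatal difference of 0.06. Immediate early genes gave 20 more negative, 1 more positive and 9 not called of 30, and complement and interferon genes 15, 1 and 8 of 24. Ribosomal protein genes, at -0.92 later and -0.19 neonatally, gave 50 more negative of 54.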

How the data were processed

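The authors deposited, for each of the 13 libraries, a table of FPKM per transcript with confidence limits, a quantification status and a read coverage column, per the file headers; TopHat2 2.0.5, Cufflinks 2.1.1 and build mm9 are named in the submitters' processing notes. No source used here names the annotation release. Transcript IDs were matched to GENCODE M21 for names (82384 of 94696 matched); 7.08 and 7.17% of the FPKM in cardiomyocytes and 9.29 and 9.40% in fibroblasts had no match. The deposited coverage signal was used only as a measure of depth. The deposited FPKM of transcripts of at least 200 nucleotides with status OK were summed per gene and scaled by median ratios (factors 0.994 to 1.03). Genes with a mean of at least 1 FPKM were tested two-sided in R 4.3.3 with limma 3.58.1, its empirical Bayes step following the intensity trend, on log2(scaled FPKM + 1), which understates differences of low genes, and p-values were adjusted over all genes tested. With 2 residual and 3.12 prior degrees of freedom, the spread was mostly borrowed. Isoforms were tested in genes with a mean of at least 5 FPKM and at least 1 FPKM in each library, with 0.5 added to each part of the ratio and mean shares of 5 to 95%. The fits were tested on simulated data. Gene sums that missed at least 20% of a gene's FPKM, or that shifted its log2 difference by at least 0.5, were counted and not named. Dmd and Utrn are named although at least 1 of them had such a sum.

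The members, gene lists and pairs were chosen with earlier results of these data known. Named were the 4 markers Myl3, Ckmt2, Ptx3 and Tnfaip6, the 10 largest called differences in each direction among genes with whole values, up to 5 called members of each list in its main direction with the highest level and up to 4 in the other, the pairs, the 12 genes with the largest isoform shift and called isoforms of the isoform list, the 5 largest interactions in each direction, and the 5 transcription factors with the largest difference each way. Other genes are given as list members that were not called or as picked after their values were seen. Ventricles of the 3 younger ages were not used here. Promoter sequences are from RefSeq and exon sequences from GENCODE. A few genes that this rule names, and 1 pair, are not reported here.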

Additional observations from a re-analysis of the deposited data

Results flagged for a closer look

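The difference between cardiomyocytes and fibroblasts was not the same later as neonatally, by the limma interaction test in the fit of 8 cell libraries, which called 7071 genes. Leaving out 1 library at a time gave 5303 to 7970. On the muscle side the interaction was 7.56 ± 0.29 for Ckmt2, 7.40 ± 0.19 for Myl3, 6.93 ± 0.23 for Myl2, 6.77 ± 0.19 for Tnnt2 and 6.75 ± 0.24 for Cox6a2. For Ckmt2 the later difference was 10.76 and the neonatal one 3.21, with 50.6 and 65.5 FPKM in neonatal cardiomyocytes and 6.13 and 4.24 FPKM in neonatal fibroblasts. On the inflammatory side it was -10.96 ± 0.47 for Il6, -9.09 ± 0.51 for Cxcl2, -8.84 ± 0.60 for Cxcl3 and -7.51 ± 0.76 for Csf2, and -7.85 for the heme oxygenase Hmox1. Ptx3 had -6.20 ± 0.30 and Tnfaip6 -4.07 ± 0.20, and both were called lower in cardiomyocytes at the neonatal stage too, by 3.36 and 4.46 on the log2 scale. None of these 12 interactions lost its call under the alternatives tried. Cardiomyocyte RNA in the neonatal fibroblast libraries, and the isolation of neonatal and later cardiomyocytes by different methods, move with the stage, and their part was not tested.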

How the results depend on the processing

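With 2 libraries per cell type and no replicate of an age, the difference between ages is part of the error, and low FPKM are compressed by the added 1. Since the spread was mostly borrowed, a call did not require a difference beyond that between the ages. Serpinh1 was called at -1.21 with 177 and 74.8 FPKM in cardiomyocytes and 242 and 300 FPKM in fibroblasts. Leaving out 1 of the 4 libraries, with the lone library assumed to vary like the others, gave 5885 to 9054 genes called, 3199 to 4656 higher and 2633 to 4416 lower and 2184 to 2710 isoforms; the lowest lower counts, 2633 and 2724, were without the PN67 and the PN30 cardiomyocytes. Leaving out 1 of the 8 cell libraries gave 5303 to 7970 interactions. Requiring a gene mean of 20 FPKM left 1278 isoforms and a share difference of 20 points left 1165, which follows from fewer isoforms that qualify. The share of calls that were higher lay between 48.0 and 55.3% over the settings. The labels carry no replicate numbers that pair the libraries, and a block of the younger against the older libraries gave 8653 genes (4429 higher, 4224 lower) and 2908 isoforms. Restriction to genes with whole sums, chosen after seeing the data, gave 7551 genes, 2620 isoforms and 6313 interactions. Of 248 named genes called, 43 lost their call without 1 library (none with a log2 difference beyond 2.34) and 22 without the filter on low values. Uncalled Ckb, Cpt1a and Utrn changed sign: Ckb ranged from -0.776 to 0.146 (0.146 without the PN60 fibroblasts), Cpt1a from -0.353 to 0.125 (0.125 without the PN30 cardiomyocytes) and Utrn from -0.016 (without the PN28 fibroblasts) to 0.349.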
